A study of Mus musculus with 7 samples.

Results

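The NF-kB subunits and the IkB inhibitors that hold them were followed in splenic B cells of miR-155 transgenic and wild-type mice. The family was taken as the 10 genes Rel, Rela, Relb, Nfkb1, Nfkb2, Nfkbia, Nfkbib, Nfkbie, Nfkbiz and Bcl3, and every probe set was used whose platform annotation names only 1 of them. That gave 18 of the 45101 probe sets of the array, for 9 of the 10 genes. Nfkb1 was not analysed here. The 3 transgenic (TG) samples are spleen B cells of FVB mice that carry Eu-miR-155, a transgene whose Eµ element, an enhancer of the antibody heavy chain genes, directs the microRNA to B cells. The 4 wild-type (WT) samples are spleen B cells of FVB mice without it. All 7 were isolated with the same magnetic B-cell kit and hybridised to 1 array each. The labels give neither age nor sex, nor whether the TG mice came from 1 founder. The mature microRNA of the transgene, from RefSeq (GRCm38.p6, chr16:84714143-84714165, plus strand), is printed with its seed, bases 2 to 8, in capitals because it is the sequence through which the transgene reaches its messenger RNAs.
mmu-miR-155-5p: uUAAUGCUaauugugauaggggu

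NF-kB is a family of dimeric transcription factors that carries signals from the B cell receptor, CD40, the BAFF receptor and Toll-like receptors to genes of survival, proliferation and inflammation. In resting cells the dimers are kept in the cytoplasm by IkB proteins. The IKK kinases mark IkB for destruction in the canonical pathway and trigger the trimming of the Nfkb2 precursor in the alternative one. Several family members, Nfkbia among them, are themselves switched on by NF-kB, and the host gene of miR-155 is also known as an NF-kB target.

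The authors deposited GCRMA values, which are log2 levels, so a difference of 1 is a 2-fold change, and a level at or under 4 is treated as not above background. Levels of different probe sets are not comparable, so each was compared only between arrays. The marker genes of mature B cells were bright on every array, and all 14 annotated ones were tested. In TG arrays 2 fell (14.3%, beside 2.56% of all genes tested) and 0 rose. The difference was negative for 13 of the 14, beside 49.5% of all genes tested. The list averaged 13.04 to 13.42 on TG arrays and 13.52 to 13.63 on WT arrays. Markers of other cells were above background in greater number on TG arrays: of 11 granulocyte genes 7 to 9 were so on TG arrays and 1 to 3 on WT arrays, and of 11 erythroid genes 5 to 8 on TG arrays and 1 on each WT array. Several of these entered the test through the TG arrays alone, so their rises are not counted here. TG replicate 3 stood apart: all 12 T cell genes were above background there, against 3 on each of the other TG arrays and 2 on each WT array. Their mean was 7.91 there, against 3.17 and 3.28 on the other TG arrays and 2.96 to 3.02 on WT arrays. Xist and the Y-linked Eif2s3y divided the WT arrays, with Eif2s3y at 9.85 and 11.10 on WT replicates 3 and 4 and at the lowest value, 2.17, elsewhere, and Xist at 2.22 and 2.81 there and at 13.61 or more elsewhere, so sex was not balanced between the groups. In such bulk samples fewer cells of a type and less RNA per cell cannot be told apart. With 3 and 4 arrays, the precision of each difference is limited by their number.

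The lymphoid subunit gene Rel was the 1 of 9 tested family genes that changed (11.1%, where 10.7% of all 9517 genes tested passed in either direction), and it fell (2.56% of all genes fell and 8.11% rose). Rel encodes c-Rel, a subunit with a transactivation domain that is abundant in lymphocytes and needed for B cell proliferation after receptor engagement. Its probe set stood at 8.06, 7.69 and 7.36 on TG replicates 1, 2 and 3, against 8.47, 8.61, 8.75 and 8.48 on WT replicates 1 to 4. All 4 WT arrays were thus above the highest TG array, TG replicate 3 was the lowest of the 7, and the TG arrays were spread more widely than the WT arrays. The mean was 7.71 ± 0.35 (SD, n = 3) in TG and 8.58 ± 0.13 (SD, n = 4) in WT arrays. The difference was -0.87 ± 0.17 (SE, limma adjusted p = 0.0312), which places Rel in the bulk TG samples at 54.6% of the WT level (95% confidence interval 41.4% to 72.2%). The call was not firm. It was lost without WT replicate 1, 2, 3 or 4 (limma adjusted p = 0.0674, 0.0884, 0.0779 and 0.0718) and without TG replicate 2 (0.104), and kept without TG replicate 1 (0.0171) or TG replicate 3 (0.0428), while the difference itself stayed between -1.05 and -0.70. Fitted beside the level of Xist it was -0.83 (limma adjusted p = 0.112), and without WT replicates 3 and 4 it was -0.83 (limma adjusted p = 0.178).

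**Figure D1:**
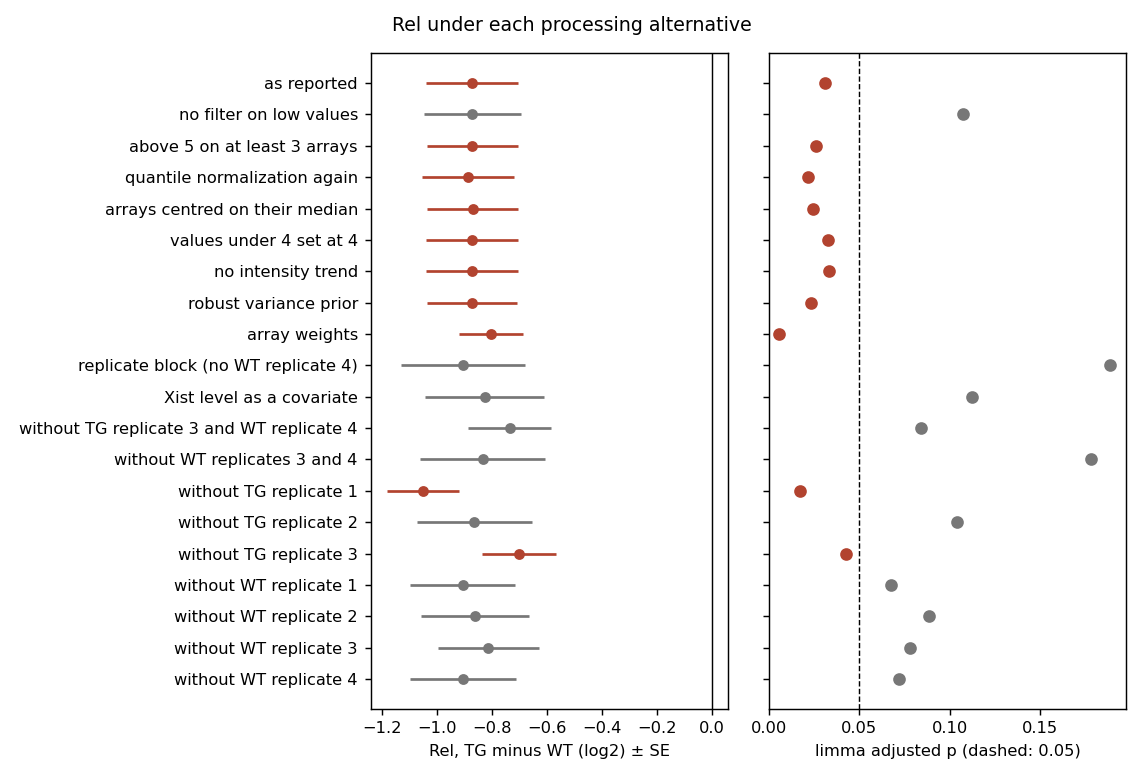
Difference of Rel, TG minus WT on the log2 scale with its SE (left), and its limma adjusted p (right), as reported and under 19 alternatives; red points are under the dashed threshold of 0.05. The difference stays between -1.05 and -0.70, while the adjusted p runs from 0.00567 to 0.189 and is under the threshold in 9 of the 19 alternatives.

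**Figure D2:**
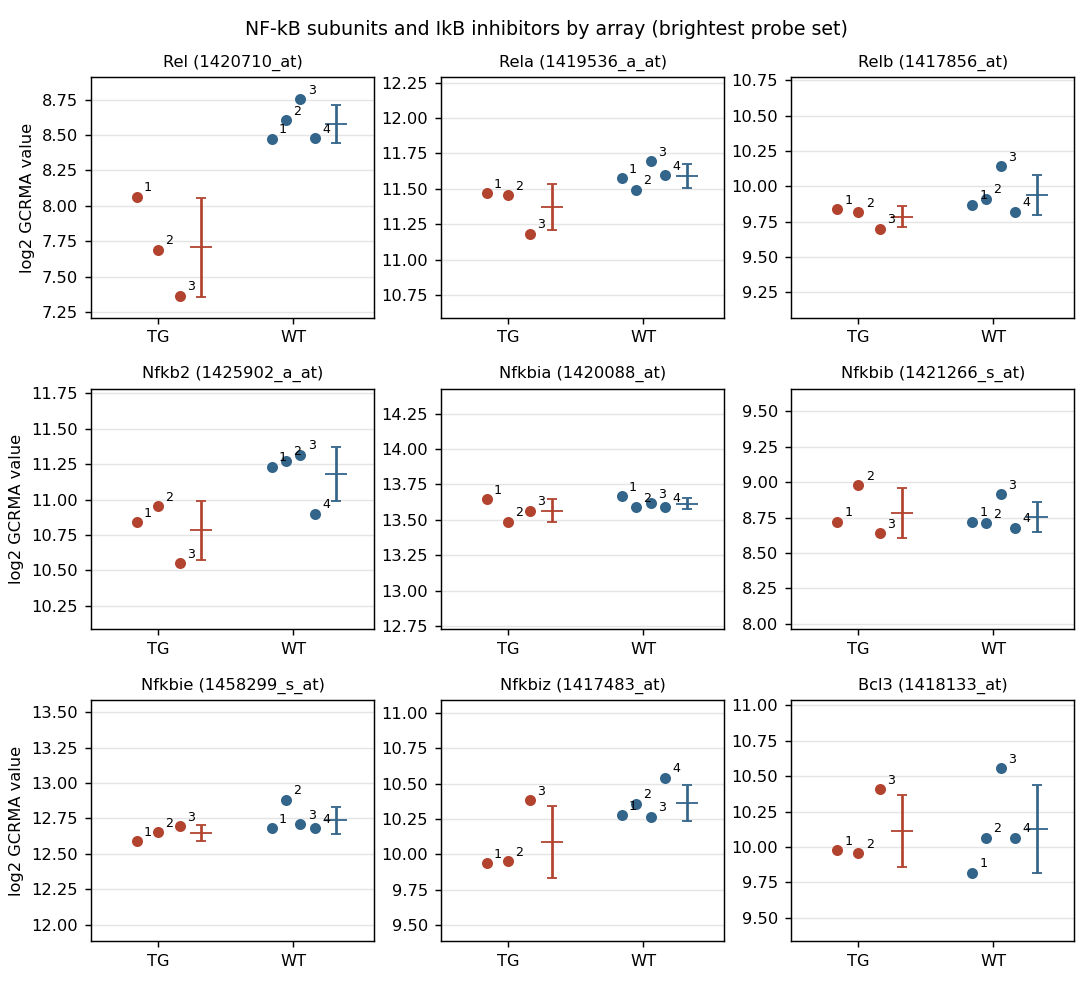
Log2 GCRMA value of the brightest probe set of each of the 9 genes on every array, TG left and WT right, with each group's mean and SD beside its points and the replicate number at each point; every panel spans the same log2 range. Only the Rel and Rela panels show TG points that all lie below the WT points, and the gap is wide for Rel (7.36 to 8.06 in TG, 8.47 to 8.75 in WT) and narrow for Rela.

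Marker lists are given here as values beside Rel. Mature B cell genes had a median difference of -0.26, and the sum of their linear levels ran from 198121 to 225340 on TG arrays and from 233131 to 250384 on WT arrays. The 15 annotated cell cycle genes were all tested, and 13 rose (86.7%, beside 8.11% of all genes). Their sums were 17247 to 32454 on TG arrays and 11028 to 12351 on WT arrays. Of the 11 annotated granulocyte genes, 1 (Mmp8) was not above background on any array, and the sums were 15730 to 31766 on TG arrays and 79.5 to 255 on WT arrays. Mpo, Elane, Prtn3 and Ctsg led the TG sums, at 10.07 to 13.93 on TG arrays. Ltf and Camp were above background on TG replicate 1 alone. Of the 12 T cell genes, 3 were tested and 0 passed, with sums of 222 to 8068 on TG arrays and 166 to 206 on WT arrays, and 0 of the 12 were below background on all arrays. Megakaryocyte and platelet sums were 11088 to 20499 on TG arrays and 856 to 4184 on WT arrays. In the same order plasma cell sums were 43757 to 63287 and 31347 to 35757, and blood progenitor sums 7199 to 10090 and 6617 to 7687. A sum follows the brightest genes of its list. Lmo2 led the progenitor sums, at 12.60 to 12.78 on TG and 12.66 to 12.89 on WT arrays. The mean log2 level of the progenitor list was 5.20 to 6.45 on TG and 3.91 to 4.10 on WT arrays. Erythroid sums were 1381 to 3750 on TG and 1613 to 1914 on WT arrays. Car2 led them, at 10.13 to 11.04 on TG and 10.61 to 10.86 on WT arrays. The mean log2 level of the erythroid list was 4.32 to 6.25 on TG and 3.09 to 3.12 on WT arrays. Of the 10 blood progenitor genes 4, and of the 11 erythroid genes 3, were not above background on any array. The part of these lists in the difference of Rel was not tested.

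**Figure D3:**
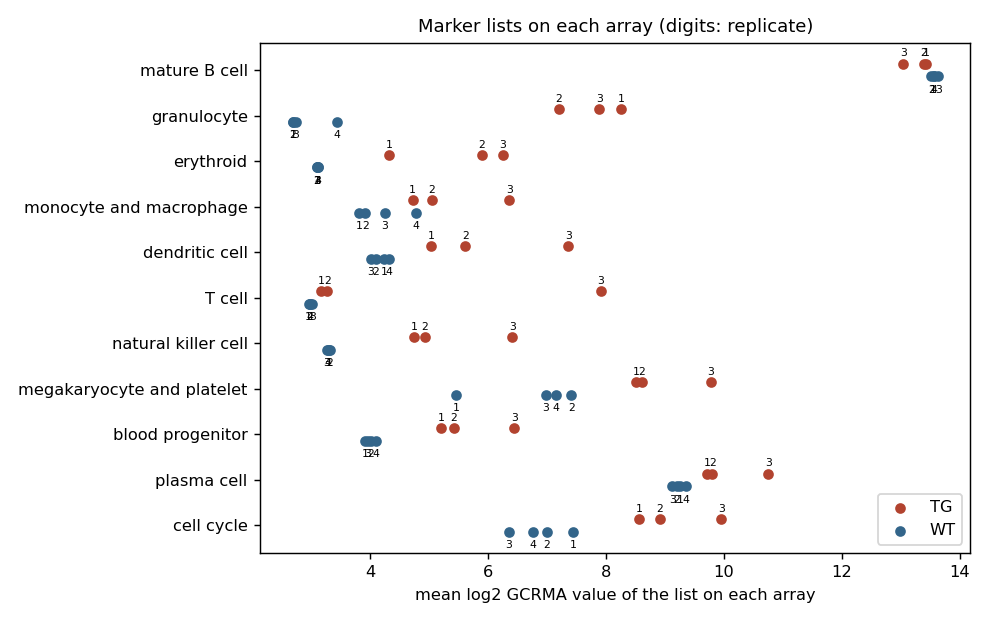
Mean log2 GCRMA value of each marker list on every array, TG points above WT points in each row, with replicate numbers as digits. Mature B cell genes lie at 13.04 to 13.42 on TG arrays and 13.52 to 13.63 on WT arrays, while the T cell list is high on TG replicate 3 alone.

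The other subunits had lower means in TG arrays and did not pass. Nfkb2 encodes the precursor that inhibits RelB until it is trimmed to RelB's partner. Its brightest probe set stood at 10.84, 10.95 and 10.55 on TG arrays, against 11.23, 11.28, 11.32 and 10.90 on WT arrays. The groups overlapped through WT replicate 4, which was below TG replicate 2. The difference was -0.40 ± 0.14 (SE, limma adjusted p = 0.112), with a 95% interval of -0.72 to -0.08. It was -0.49 without WT replicate 4 (limma adjusted p = 0.0783) and -0.28 without TG replicate 3 (0.236). Without both of these arrays it was -0.38 (limma adjusted p = 0.0510). The second Nfkb2 probe set, whose suffix marks probes that may also pair with other transcripts, differed by -0.50 (limma adjusted p = 0.190). It was at 9.64 on TG replicate 3 and at 10.51 and 10.44 on TG replicates 1 and 2, against 10.49 to 10.85 on WT arrays. Without TG replicate 3 the difference was -0.22 (limma adjusted p = 0.279).

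Rela encodes the p65 subunit, the main activator of the canonical pathway in most cells. It had 11.47, 11.46 and 11.18 on TG arrays, against 11.57, 11.49, 11.70 and 11.59 on WT arrays. The groups did not overlap, but TG replicate 2 and WT replicate 2 were nearly level. The difference was -0.22 ± 0.09 (SE, limma adjusted p = 0.151; 95% interval -0.43 to -0.01), and -0.13 without TG replicate 3 (limma adjusted p = 0.261). Relb encodes the activator of the alternative pathway. It had 9.84, 9.82 and 9.70 on TG arrays, against 9.87, 9.91, 10.14 and 9.82 on WT arrays. The groups overlapped, since TG replicate 1 was above WT replicate 4, WT replicate 3 was the high array, and the difference of -0.15 did not pass (limma adjusted p = 0.291; 95% interval -0.36 to 0.06). Without WT replicate 3 it was -0.083 (limma adjusted p = 0.413).

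None of the tested probe sets of the cytoplasmic inhibitors passed, and each differed by at most 0.12 in size. Nfkbia encodes IkBα, the fast inhibitor that NF-kB itself re-induces. Its brightest probe set stood at 13.65, 13.49 and 13.56 on TG arrays, against 13.67, 13.59, 13.62 and 13.59 on WT arrays. All 7 arrays lay within 0.18 of each other, and the difference of -0.049 had a 95% interval of -0.16 to 0.06 (limma adjusted p = 0.496), which in linear terms is 89.4% to 104% of the WT level. The other bright Nfkbia probe sets differed by -0.11, -0.096 and -0.12 (limma adjusted p = 0.152, 0.316 and 0.141), and for the first and last of these the groups did not overlap. The dim one, at 7.62 to 8.06 on TG arrays and 7.61 to 7.89 on WT arrays, differed by 0.042 (limma adjusted p = 0.840).

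Nfkbib encodes IkBβ, an inhibitor that is re-induced more slowly. It had 8.72, 8.98 and 8.64 on TG arrays, against 8.72, 8.71, 8.91 and 8.68 on WT arrays. The groups overlapped throughout and the difference was 0.024 (limma adjusted p = 0.892; 95% interval -0.22 to 0.27). Its second probe set gave the lowest value, 2.17, on all 7 arrays and was not tested. Nfkbie encodes IkBε, known to restrain c-Rel and RelA in B cells. It stood at 12.59, 12.65 and 12.70 on TG arrays, against 12.68, 12.88, 12.71 and 12.68 on WT arrays. WT replicate 2 was the high array and the rest were within a narrow band. The difference was -0.091 (limma adjusted p = 0.351; 95% interval -0.24 to 0.06), and that of the second probe set was -0.11 (limma adjusted p = 0.489). The second moved between -0.052 without TG replicate 2 and -0.21 without TG replicate 3, and was -0.060 without TG replicate 1 and -0.069 without WT replicate 2.

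The nuclear members of the family were measured as well. Nfkbiz encodes IkBζ, a nuclear protein that is induced through Toll-like receptors and helps NF-kB activate a secondary set of genes. Its brightest probe set had 9.94, 9.95 and 10.38 on TG arrays, against 10.28, 10.36, 10.27 and 10.54 on WT arrays. TG replicates 1 and 2 were below every WT array, and TG replicate 3 was among them. The difference was -0.27 ± 0.13 (SE, limma adjusted p = 0.215), and -0.42 without TG replicate 3 (limma adjusted p = 0.0512). The second probe set had 9.18, 9.25 and 9.38 on TG arrays, against 9.41, 9.51, 9.64 and 9.49 on WT arrays. Here the groups did not overlap, with -0.24 ± 0.08 (SE, limma adjusted p = 0.0980), and the third, dim probe set differed by -0.21 (limma adjusted p = 0.171). The brightest passed without both TG replicate 3 and WT replicate 4 (-0.36, limma adjusted p = 0.0469), and the third without TG replicate 3 (-0.31, limma adjusted p = 0.0435). Bcl3 encodes a nuclear IkB that binds homodimers of the small subunits and can turn them into activators. It had 9.98, 9.95 and 10.41 on TG arrays, against 9.82, 10.06, 10.56 and 10.06 on WT arrays. TG replicate 3 and WT replicate 3 were high within their groups, and the difference was -0.012 (limma adjusted p = 0.978), with the widest 95% interval among the inhibitors' brightest probe sets, -0.48 to 0.45.

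**Figure D4:**
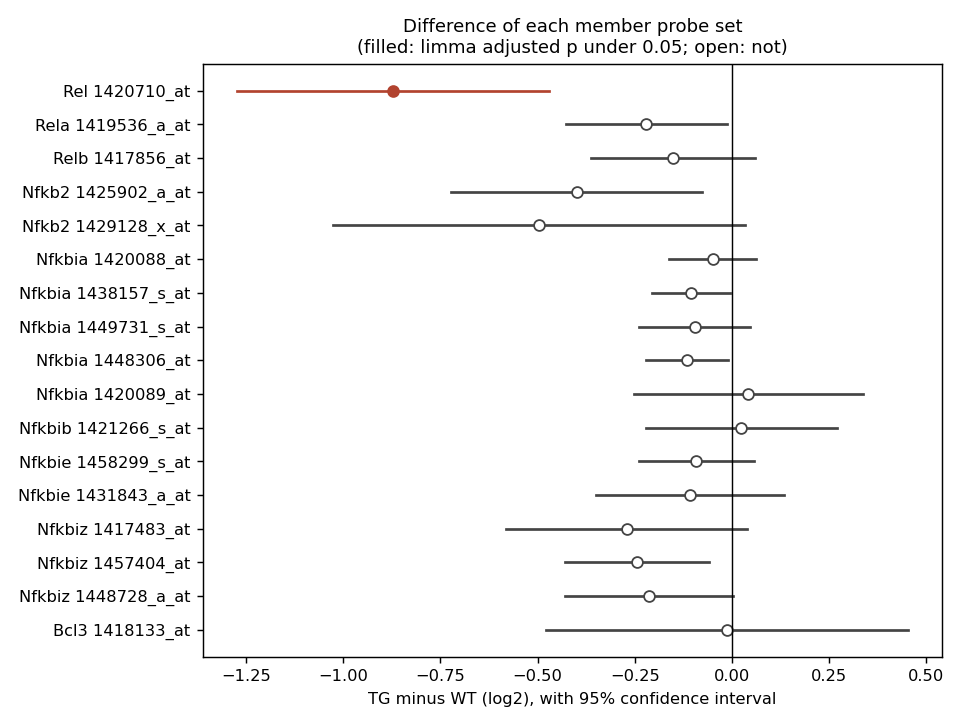
TG minus WT difference on the log2 scale of the 17 tested probe sets of the family with its 95% confidence interval; the filled point passed the limma test and the open ones did not. Rel lies at -0.87 and every other probe set between -0.50 and 0.04.

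The family's share of passing genes in either direction was thus near that of the whole array. All 17 tested probe sets were above background on all 7 arrays, so none entered the test through 1 group alone. By probe set 1 of 17 passed (5.88%), against 9.28% of all 20994 tested, of which 3.65% were lower. The groups did not overlap for 2 of the 9 genes, Rel and Rela (22.2%), both lower in TG. Of all tested genes 29.9% had no overlap, 10.4% with TG lower. By probe set 5 of 17 had none (29.4%), all lower in TG, beside 27.5% of all probe sets, 13.3% with TG lower. A negative difference was found for 8 of the 9 genes, with a median of -0.15, against 49.5% of all tested genes and a median of 0.00. By probe set 15 of the 17 were negative, beside 57.7% of all tested probe sets. Probe sets of a gene share its transcript and are not independent. Of the 4 subunit genes 1 fell, and of the 5 inhibitor genes 0 passed in limma. At an unadjusted limma p under 0.05, the brightest probe sets held 3 genes, the subunits Rel, Nfkb2 and Rela, and 0 inhibitors. With the mean of a gene's probe sets 1 inhibitor was under that level. The inhibitors' dimmer probe sets held 3 under it, all lower in TG: 2 of Nfkbia and 1 of Nfkbiz. The share of all tested genes under that level was not taken. Many probe sets of the array lay under it, since Rela's unadjusted limma p of 0.0402 became 0.151 on adjustment. No excess of the family is read from these counts. Whether subunits and inhibitors differ was not tested.

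The fall of Rel was set against the promoters of the family, because several family members are described as targets of NF-kB. RefSeq promoter windows (GRCm38.p6), each of 300 bases from 250 before a transcript start to 50 after it, were at hand for 7 of the 10 genes, 9 windows in all. They were searched on both strands for the 10-base NF-kB consensus, and matches on the 2 strands may overlap. A match was found for 5 genes (Rel, Nfkb2, Nfkbia, Nfkbie and Bcl3) and none for the windows of Rela and Nfkbib. Of 27025 mouse genes with a window, 9.55% hold a match, and among windows with at least 60% G and C the share is 13.3%. The windows of Rel, which fell, and of Nfkbia, which did not pass, are printed with the matched bases in capitals, both on the minus strand and written 5′ to 3′ along the gene (Rel chr11:23770920-23771219, Nfkbia chr12:55492598-55492897).
Rel: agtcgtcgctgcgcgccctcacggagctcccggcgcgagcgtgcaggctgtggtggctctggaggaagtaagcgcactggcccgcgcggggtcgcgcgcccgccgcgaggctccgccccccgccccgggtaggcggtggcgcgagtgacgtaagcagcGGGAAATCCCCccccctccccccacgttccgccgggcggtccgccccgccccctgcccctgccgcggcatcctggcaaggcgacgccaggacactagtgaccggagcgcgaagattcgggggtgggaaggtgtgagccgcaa
Nfkbia: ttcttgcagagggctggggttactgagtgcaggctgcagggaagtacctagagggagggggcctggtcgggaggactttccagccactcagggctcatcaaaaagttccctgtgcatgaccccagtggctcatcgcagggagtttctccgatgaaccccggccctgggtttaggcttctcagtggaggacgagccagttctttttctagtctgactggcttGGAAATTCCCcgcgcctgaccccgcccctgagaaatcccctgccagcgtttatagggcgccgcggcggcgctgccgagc
In Rel the match begins 92 bases before the start and covers 11 bases, read as GGGAAATCCC on the gene's strand and GGGGATTTCC on the other. In Nfkbia it begins 29 bases before the start and reads GGGAATTTCC on the opposite strand. A gene that fell and a gene that did not pass thus both carry a match. A match describes letters and shows no binding.

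By their profile over the 7 arrays, the genes most like Rel were Fgd3 (Pearson's r = 0.995), 2610005L07Rik (0.994) and Ssh2 (0.992). Those most like Rela were Dhx8 (0.996), Pan3 (0.995) and Plekha2 (0.994), and those most like Nfkb2 were Usf2 (0.984), Mdc1 (0.983) and Wnk1 (0.980). These are the highest of 9480 comparisons each, over 7 arrays that also share their genotype difference, so they are given as a description. Fgd3, a guanine nucleotide exchange factor gene, fell by 0.72 on the log2 scale (limma adjusted p = 0.0206), with 9.90, 9.65 and 9.45 on TG arrays and 10.31 to 10.51 on WT arrays. The order of its TG arrays was that of Rel, which its choice by likeness to Rel all but ensures.

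Other genes of the pathway were read from 5 lists of 102 genes, of which 79 were tested. In all 14 passed (17.7%, beside 10.7% of all genes). In TG arrays 7 were higher (8.86%, beside 8.11% of all genes) and 7 lower (8.86%, beside 2.56% of all genes). The same shares of all genes stand beside the counts of each list below. Of 21 tested kinases and adaptors that activate NF-kB, 1 was higher, 2 were lower and 18 did not pass (median -0.12). Ikbkb encodes IKKβ, the kinase that marks IkBα. It had 12.99, 12.96 and 12.71 on TG arrays, against 13.45, 13.32, 13.59 and 13.29 on WT arrays, a fall without overlap (-0.53 ± 0.10 SE, limma adjusted p = 0.0295). Prkcb, the protein kinase C that couples the B cell receptor to NF-kB, differed by -0.56 ± 0.13 (SE, limma adjusted p = 0.0442), with 12.69, 12.64 and 12.18 on TG arrays and 13.03, 13.14, 12.99 and 13.08 on WT arrays. Ikbke, which encodes an IKK-related kinase and is a described miR-155 target, rose by 0.60 ± 0.14 (SE, limma adjusted p = 0.0499), with 8.71, 8.77 and 9.20 on TG arrays and 8.16 to 8.52 on WT arrays. The part of the mature B cell, granulocyte and cell cycle lists, whose sums are given beside Rel, was not tested for these genes.

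Among 20 tested negative regulators and genes of IkB turnover, 1 was lower, 0 were higher and 19 did not pass (median -0.028). Nkiras1, whose Ras-like product binds IkB proteins and slows their loss, fell by 0.29 on the log2 scale (limma adjusted p = 0.0356), with 7.97, 7.97 and 7.98 on TG arrays and 8.20 to 8.35 on WT arrays. Nfkbid, a nuclear IkB gene akin to Nfkbiz and needed in B cells for responses to some antigens, had 9.64, 9.63 and 9.08 on TG arrays, against 9.78, 10.10, 10.32 and 10.06 on WT arrays. Its difference of -0.62 ± 0.18 (SE) did not pass (limma adjusted p = 0.0796), although the groups did not overlap.

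Receptors upstream of NF-kB went both ways: of 14 tested, 2 rose, 2 fell and 10 did not pass (median -0.17). Cd40, the receptor for T cell help, changed by -0.44 (limma adjusted p = 0.0495) and Tlr1, which pairs with Tlr2 to sense lipopeptides, by -0.36 (limma adjusted p = 0.0309). Tlr3, a sensor of double-stranded RNA, rose by 0.72 ± 0.10 (SE, limma adjusted p = 0.0163), with 9.60, 9.76 and 9.64 on TG arrays and 8.73 to 9.08 on WT arrays. Tnfrsf1b, which encodes a TNF receptor, rose by 0.39 (limma adjusted p = 0.0451). Of 3 tested ligands only Ltb, encoding lymphotoxin β, passed (-0.25, limma adjusted p = 0.0377), while Lta did not pass (-0.086, limma adjusted p = 0.750). The sums of the dendritic cell list were 814 to 4154 on TG arrays and 268 to 381 on WT arrays. Those of the monocyte and macrophage list were 2547 to 4849 on TG arrays and 823 to 3797 on WT arrays. Cd209a of the first list and Cd14, Marco and Mrc1 of the second were not above background on any array. Their part in the receptor and ligand differences was not tested.

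Described NF-kB target genes did not follow 1 direction. Of 21 tested, 4 rose, 1 fell and 16 did not pass (median 0.15). Ccl5, a chemokine of T and natural killer cells among others, rose by 3.59 ± 0.38 (SE, limma adjusted p = 0.00814), with 9.79, 9.85 and 10.74 on TG arrays and 5.73 to 7.07 on WT arrays. Of the 9 natural killer cell genes 5 or 6 were above background on TG arrays and 2 on each WT array, with summed levels of 614 to 2492 on TG and 238 to 262 on WT arrays, and Ncr1, Eomes and Klre1 were not above background on any of them. Myc rose by 0.90 and Bcl2l1, encoding a survival protein, by 0.64 (limma adjusted p = 0.0221 and 0.0188), and so did the cytokine subunit gene Ebi3 (0.70, limma adjusted p = 0.0403), which was picked out after its value was seen. Birc3, encoding an inhibitor of apoptosis that NF-kB induces, fell by 0.36 on the log2 scale (limma adjusted p = 0.0293), with 12.53, 12.40 and 12.60 on TG arrays, all below the 12.76 to 12.93 of WT arrays. Of the 14 genes that passed, Ccl5 did so in all 7 fits that leave out an array and Tlr3 in 5 of 7 (not without TG replicate 2 or WT replicate 2). Ikbke, Nkiras1, Tnfrsf1b, Ltb and Ebi3 passed in 0 of the 7 (limma adjusted p up to 0.125, 0.112, 0.134, 0.101 and 0.126). Cd40 passed in 1, Ikbkb, Prkcb and Tlr1 in 2, Bcl2l1 and Birc3 in 3 and Myc in 4, and for each of these the fit without TG replicate 3 was among those passed. The fits that lost them were those without TG replicate 2 or a WT array, which was any of the 4 for Ikbkb, Prkcb, Tlr1 and Cd40, replicates 2, 3 and 4 for Bcl2l1, replicates 1, 2 and 4 for Birc3 and replicates 2 and 4 for Myc, and Cd40 was also lost without TG replicate 1. Of the 15 cell cycle genes 13 rose on the same arrays (86.7%, beside 8.11% of all genes), and their part in these values was not tested.

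**Figure D5:**
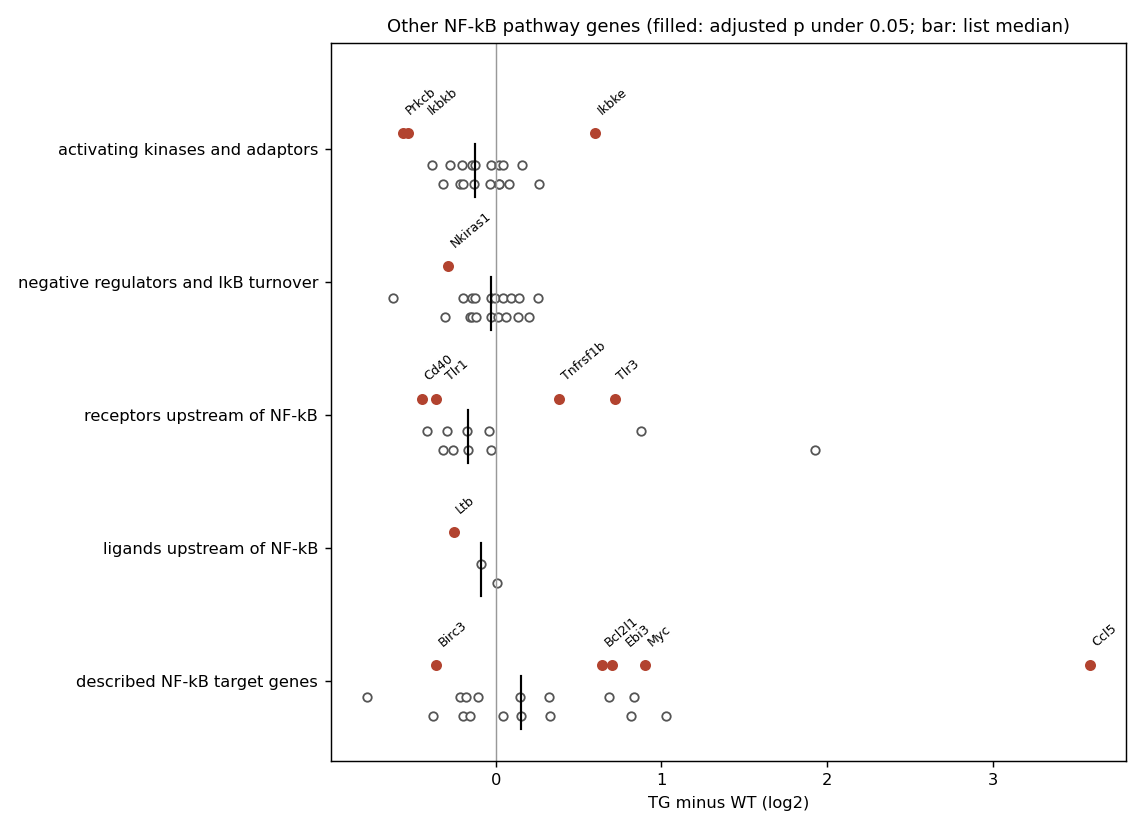
TG minus WT difference on the log2 scale of each tested gene of 5 NF-kB pathway lists; filled, named points passed the limma test, open points did not, and the bar is the list's median. The 14 passing genes lie on both sides of 0, and Ccl5 at 3.59 is farthest from it.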

How the data were processed

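Biotin-labelled cRNA of each sample was hybridised to 1 Affymetrix array. The deposited values are GCRMA values made by the authors, per the submitters' processing notes, without a version. The authors deposited them as log2 values, judged by their range, since no header states the scale. The method estimates background from each probe's sequence, equalises the arrays by quantiles and summarises the probes of a set, and it leaves many dim probe sets at a common lowest value. Batches were not tested, since neither scan dates nor slides were used here. Separate mice are taken from the series' design text.

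Of 45037 probe sets that are not controls, those above 4 on at least 3 of the 7 arrays were tested (20994), with limma 3.58.1 in R 4.3.3 (lmFit, eBayes with an intensity trend, prior degrees of freedom 1.68) and Benjamini-Hochberg adjustment over all of them at 0.05. All adjusted p-values come from limma. A gene is represented by its brightest probe set (9517 genes), and gene symbols come from the platform annotation. Probe sets that name several genes (932) were left out of gene counts. Confidence intervals use the moderated SE. The alternatives were other filters, scalings, variance models and array weights, a replicate block, Xist as a covariate, the mean of a gene's probe sets, and fits without 1 or 2 arrays.

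The members, the lists, the rule for named genes and the alternatives were chosen with earlier results of these data known. The rule names every member, up to 4 passing genes per pathway list, or the 2 of smallest p where fewer than 2 passed, and the 3 genes most like each of the 3 members of smallest p. The procedure was tested on simulated data. Promoter and microRNA sequences are from RefSeq tables of GRCm38.p6, read with Python 3.11.15. Whether the replicate numbers pair the samples was checked: deviations of same-numbered arrays from their group means correlated at -0.09, -0.14 and -0.26 over probe sets, so the numbers were not taken as pairs.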

Additional observations from a re-analysis of the deposited data

Results flagged for a closer look

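In the WT group 3 of the 17 tested probe sets of the family had 1 array far from the other WT arrays, by the gap to its neighbour as a share of the group's range; chance gives about 1 in 20 for values without ties, and groups of 3 were not examined. An Nfkbia probe set was at 13.55 on WT replicate 4, with the other WT arrays at 13.45 to 13.46. The brightest Nfkbie probe set was at 12.88 on WT replicate 2, at the identical value of 12.68 on WT replicates 1 and 4 and at 12.71 on WT replicate 3. The dim Nfkbiz probe set was at 6.48 on WT replicate 3 and at the identical value of 6.37 on the other WT arrays and on TG replicate 3. With such ties that rate does not apply to the Nfkbie and Nfkbiz probe sets.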

How the results depend on the processing

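The size of the Rel difference was steady and its call was not. It passed in 9 of 19 alternatives and in 2 of the 7 fits that leave out an array, in which the difference ran from -1.05 to -0.70. It did not pass with no filter on low values (-0.87, limma adjusted p = 0.107), with a replicate block, fitted without WT replicate 4 (-0.91, 0.189), with the Xist covariate (-0.83, 0.112), without both TG replicate 3 and WT replicate 4 (-0.73, 0.0838) or without WT replicates 3 and 4 (-0.83, 0.178). Counts moved more than differences. Over all probe sets 1949 passed, with 199 under no filter, 5245 under array weights, 4 under the replicate block, 277 with the Xist covariate, 687 without TG replicate 3 and WT replicate 4, 15 without WT replicates 3 and 4, and 138 to 2149 without 1 array. In the same order the pathway genes passing were 14, then 1, 26, 0, 3, 4 and 0, and 1 to 11 without 1 array. Of the family 0 genes passed under no filter, the replicate block, the Xist covariate and without WT replicates 3 and 4, 2 passed under array weights (Rel and Nfkbiz), 1 passed without TG replicate 3 and WT replicate 4 (Nfkbiz in place of Rel), and 0 to 1 without 1 array. At an unadjusted p under 0.05 these 4 settings with 0 passing had 3, 2, 2 and 2 of the 9 genes in limma, and the test as reported had 3. The share of all tested genes under that level was not taken, so no comparison is drawn from these counts.

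For the other 16 probe sets of the family, 7 of 304 alternative values passed, all of them negative and of Nfkbia or Nfkbiz, and 12 turned sign, all of differences near 0. Bcl3 was at 0.18 with the Xist covariate, 0.17 without WT replicates 3 and 4 and -0.16 to 0.13 without 1 array. The dim Nfkbia probe set was at -0.018 with array weights, -0.10 without TG replicate 3 and WT replicate 4 and -0.090 to 0.13 without 1 array. Nfkbib was at -0.0015 under the replicate block and -0.076 to 0.094 without 1 array. Lta was at 0.078 with the Xist covariate, 0.062 and 0.070 without TG replicate 3 and WT replicate 4 and without WT replicates 3 and 4, and -0.22 to 0.028 without 1 array. The 13 passing pathway genes other than Ebi3 kept their sign in all 260 alternative values and passed in 128. The cause of the lost calls was not tested.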

Other observations

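Of the 94 annotated pathway genes, 15 missed the filter on low values, and 9 of these were above background on TG replicate 3 and no other array, a pattern noticed after the values were seen. They are genes of ligands (Tnfsf13b, the gene of BAFF, at 5.52 and Il1b at 4.76), receptors (Tnfrsf17 at 5.40 and Ltbr at 4.08) and described NF-kB targets (Ccl3 at 6.95, Cd80 at 6.36, Ccl22 at 5.74, Ier3 at 5.56 and Ccl4 at 4.40). Vcam1 was above background on TG replicates 2 and 3, at 4.59 and 6.79, and on no WT array. Markers of other cells showed up on the same array alone: 9 of the 12 T cell genes (Thy1 at 10.78, Cd3d at 10.70 and Cd28 at 8.67 among them), 3 of the 13 monocyte and macrophage genes (C1qa at 5.97, C1qb at 5.72 and Cd5l at 5.44) and 2 of the 9 dendritic cell genes (Ccr9 at 10.44 and Siglech at 4.60). The natural killer cell list had 1 such gene (Gzmb at 8.49), as had the erythroid (Rhd at 4.92) and megakaryocyte and platelet (F2rl2 at 5.21) lists. That of the plasma cell list was Tnfrsf17, itself among the 9 pathway genes. The part of other cells in those 9 was not tested. With 1 array behind each of the 9, no test was made.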
